A study of Mus musculus with 24 samples.

Results

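RNA of the chromatin fraction of mouse epiblast-like cells (EpiLC) was compared with RNA of the nucleoplasm fraction of these cells. All 29759 genes of the EpiLC table were considered, and the 12834 with a mean of at least 1 FPKM (fragments per kilobase of transcript, relative to the library) over its 12 libraries were tested. EpiLC were made from E14 embryonic stem cells by 3 days of culture in activin A (20 ng/ml) with bFGF (12 ng/ml). Nuclei were isolated through a sucrose buffer and divided into chromatin and nucleoplasm, with 3 libraries of each. Cytoplasm and whole-cell (total) RNA of EpiLC, also 3 libraries each, entered the fit and are given for reference. Naive embryonic stem cells (nESC) of the same line, kept with LIF and inhibitors of MEK and GSK3, supplied 3 chromatin and 3 nucleoplasm libraries for the last comparison. All libraries come from 1 cell line, no cells carried a treatment besides the culture media, and separate cultures are not named for the replicates. The p-values therefore measure only the spread between these libraries, which may be technical.

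RNA polymerase II makes its transcripts on the chromatin template, where most introns are removed before the 3′ end is cut and polyadenylated. A chromatin fraction holds these nascent transcripts together with RNAs that remain bound there, such as several long noncoding RNAs that act in the nucleus. Finished messages leave for the nucleoplasm, pass the nuclear pores and are translated in the cytoplasm. A comparison of chromatin with nucleoplasm thus asks which transcripts make up a larger share of chromatin RNA and which a larger share of nucleoplasm RNA. In a bulk fraction, more molecules of a transcript and more of its sequence retained in each molecule cannot be told apart, because FPKM counts fragments over a gene's annotated length. The values are shares of each library, so a lower value does not mean fewer molecules per cell.

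Primary transcripts of microRNAs stood among the RNAs with the largest excess in chromatin, so the microRNAs they carry are printed here. Mir17hg, the host of the Mir17 cluster (ENSMUSG00000089726, mm10 chr14:115042879-115046727, plus strand, lincRNA), holds 6 hairpins. The microprocessor cuts such hairpins out of the primary transcript in the nucleus. The mature forms below are those of RefSeq (GRCm38.p6), read 5′ to 3′, with the seed (bases 2 to 8, which pair with target messages) in capitals. They show which families the Mir17hg transcript carries:
miR-17-5p: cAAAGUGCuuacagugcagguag
miR-20a-5p: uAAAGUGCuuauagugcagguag
miR-18a-5p: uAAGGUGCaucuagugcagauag
miR-19a-3p: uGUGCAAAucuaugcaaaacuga
miR-19b-3p: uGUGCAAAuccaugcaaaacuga
miR-92a-3p: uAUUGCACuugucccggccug
The seed AAAGUGC is shared by miR-17-5p and miR-20a-5p, and GUGCAAA by miR-19a-3p and miR-19b-3p. The lincRNA 6720427I07Rik (ENSMUSG00000097375, chr13:48532905-48546500, minus strand) holds 3 hairpins of the let-7 family, whose 5p arms share the seed GAGGUAG:
let-7a-5p: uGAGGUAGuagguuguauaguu
let-7f-5p: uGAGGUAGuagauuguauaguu
let-7d-5p: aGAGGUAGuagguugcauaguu
The tables measure the long host transcripts and not these small RNAs.

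Mir17hg had 137, 135 and 113 FPKM in the chromatin libraries and 6.99, 6.28 and 5.82 in the nucleoplasm libraries. The lowest chromatin library was far above the highest nucleoplasm library, and the log2 difference was 4.23 (SE 0.11, limma adjusted p = 1.73e-10). Cytoplasm held 3.12 ± 0.371 FPKM and total RNA 28.6 ± 1.48 (SD, n = 3). The let-7 host 6720427I07Rik, added after its values were seen, had 69.8, 54.5 and 60.1 FPKM in chromatin and 5.36, 5.41 and 3.08 in nucleoplasm, a log2 difference of 3.63 (SE 0.20, adjusted p = 1.61e-08). Mirg, the microRNA host at the imprinted Dlk1-Dio3 locus (chr12:109729764-109749460, plus strand), had 749, 868 and 819 FPKM in chromatin and 88.4, 86.6 and 102 in nucleoplasm, a log2 difference of 3.13. All 3 hosts kept their groups apart without overlap. Of 25 noncoding hosts of RefSeq hairpins that were tested, 20 were called higher in chromatin (80.0%, beside 16% of all genes) and none lower. A call is a limma adjusted p under 0.05 with a difference of at least 2-fold. Among 980 other genes not annotated as coding, 32 processed pseudogenes included, 666 were called higher (68.0%). Most genes of these types were thus called higher in chromatin whether or not they hold a hairpin. Gm2044, Gm28373, Sox2ot and Gm15884, among the hosts called higher, were under 1 FPKM in nucleoplasm, cytoplasm and total RNA. Such genes passed the mean of at least 1 FPKM through chromatin, which may raise these shares. Of 435 protein-coding hosts, in which hairpins usually lie in introns, 57 were called higher (13.1%) and 57 lower.

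Across all genes tested, 4199 (32.7%) were called in this way, of 9508 with an unadjusted p under 0.05. In chromatin 2058 genes (16%) were higher and 2141 (16.7%) lower. The median log2 difference of all genes was -0.07, with quartiles of -0.72 and 0.61. The 6 libraries of a gene separated by fraction without overlap for 72.2% of genes. Genes called higher had a median of 7.67 FPKM in chromatin, 1.71 in nucleoplasm, 1.75 in cytoplasm and 2.71 in total RNA. Genes called lower had 19.6 in chromatin, 54.7 in nucleoplasm, 73.7 in cytoplasm and 47.6 in total RNA. Of the genes called higher, 266 were under 1 FPKM in nucleoplasm, cytoplasm and total RNA and passed the filter on low values through chromatin alone.

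**Figure D1:**
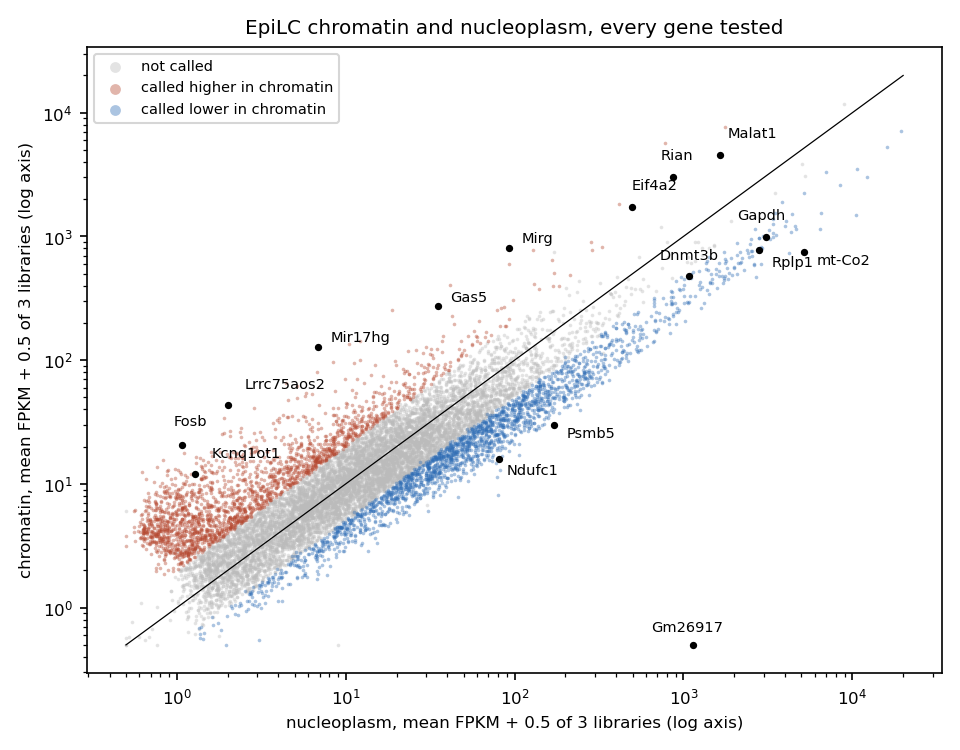
Mean FPKM plus 0.5 of the 3 chromatin libraries (vertical, log axis) against that of the 3 nucleoplasm libraries (horizontal, log axis) for the 12834 genes tested, with equality as a line. Genes called higher in chromatin (red) lie mostly at low nucleoplasm levels, genes called lower (blue) at high levels. Gm26917 is listed at 0 in chromatin.

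The balance depended on how the libraries were scaled. FPKM summed to 432706 to 504959 per chromatin library and 786489 to 821863 per nucleoplasm library. With every library scaled to one sum, the median of all genes moved up by 0.755 on the log2 scale, and 4786 genes were called higher and 496 lower. Differences below are as deposited, and the directions of groups that this scaling turned are named. By the steps between low values, 1 FPKM in a 2 kb transcript rested on 31.4 to 48.0 fragments in chromatin and on 67.9 to 76.7 in nucleoplasm. Pearson's r across genes was 0.955 to 0.980 between chromatin replicates and 0.991 to 0.995 between nucleoplasm replicates, over 12834 genes, which are not independent replicates.

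Chromatin replicate 3 stood apart. Ribosomal protein messages made up 9.68%, 10.3% and 16.9% of the FPKM sum in chromatin replicates 1 to 3, and messages of the mitochondrial genome 1.76%, 1.19% and 5.41%. The mitochondrial share was also highest in replicate 3 of nucleoplasm, at 10.5% beside 5.48% and 5.44%. The endoplasmic reticulum list made up 0.579%, 0.630% and 1.11% in chromatin. The part of this library in the differences below was measured by leaving it out. Without it 4554 genes were called, 2211 higher and 2343 lower, and 4059 of the 4199 calls were shared.

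The identity of the cells was read from pluripotency genes. The EpiLC genes Fgf5, Otx2, Pou3f1 and Dnmt3b had 54.2, 86.5, 32.3 and 778 FPKM in total RNA, and the pluripotency gene Pou5f1 had 867. Markers of other cell types summed to 353 to 360 FPKM for 16 primitive endoderm genes in total RNA and to 55.5 to 55.6 for 11 trophectoderm genes. The sums were 27.1 to 28.5 for 12 mesoderm and neural genes, 97.9 to 101 for 14 genes of 2-cell-like cells and 16.0 to 23.4 for 12 fibroblast and feeder genes. Of these lists 5, 5, 2, 2 and 4 genes reached 1 FPKM in total RNA. The tested genes of the 2-cell-like list were Zscan4c and Eif1a, a translation initiation factor gene. Krt18 of the trophectoderm list is also in the formative list, and Sparc of the primitive endoderm list in the matrix list. These sums are therefore not specific to the cell types named. The tested members were called higher in chromatin in 1 of 6, 0 of 5, 0 of 2, 0 of 2 and 0 of 4 cases, and lower in 3, 2, 1, 1 and 2. In bulk RNA, fewer cells of a type and less RNA per cell cannot be told apart. The part of these cell types in the results below was not tested.

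Nuclear noncoding RNAs were mostly higher in chromatin. Of 18 tested out of 23 in the list, 16 were called higher and 1 lower, with a median log2 difference of 2.09 beside -0.07 for all genes. Kcnq1ot1, an imprinted antisense RNA that silences neighbouring genes in cis (chr7:143203458-143296549), had 15.9, 10.9 and 7.54 FPKM in chromatin and 0.682, 0.804 and 0.845 in nucleoplasm. The chromatin libraries differed among themselves by about 2-fold and all exceeded the nucleoplasm libraries, with a log2 difference of 3.17 (SE 0.20, adjusted p = 4.33e-08), or 1.53 after correction of every library for exonic length and GC content. Neat1, the RNA that scaffolds paraspeckles, had 14.7, 16.4 and 16.9 FPKM in chromatin and 3.15, 3.18 and 4.27 in nucleoplasm, a log2 difference of 2.05 (1.44 after that correction). Malat1, an RNA of nuclear speckles, had 5549, 4520 and 3565 in chromatin and 1800, 1576 and 1545 in nucleoplasm, a smaller log2 difference of 1.45 (SE 0.22, adjusted p = 8.67e-05). Lncenc1, a noncoding RNA of embryonic stem cells named here after its values were seen, was the list's only member that was not called, at 94.3, 98.4 and 73.0 beside 56.1, 54.1 and 51.0 FPKM (log2 0.71, called at 1.51 after scaling to one sum). The 1 member called lower was Gm26917 (chr17:39843013-39846341), listed at 0 in every chromatin library and at 1142, 1217 and 1058 FPKM in nucleoplasm. Whether this 0 stands for a missing value was not tested, so its call is uncertain.

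The 4 transcripts tested from the imprinted Dlk1-Dio3 locus were all called higher in chromatin, at different sizes. Mirg, Meg3 and Rian also belong to the list of nuclear noncoding RNAs, and Rtl1 is annotated as coding and has an antisense RNA on the other strand. Meg3, the maternally expressed RNA at its start (chr12:109541001-109571726), had 655, 700 and 587 FPKM in chromatin and 157, 164 and 175 in nucleoplasm, a log2 difference of 1.96 (SE 0.13, adjusted p = 7.03e-08). Rian, a host of C/D box snoRNAs further along (chr12:109603940-109661716), had 3131, 2998 and 2998 in chromatin and 806, 813 and 970 in nucleoplasm, a log2 difference of 1.82. Mirg, at the far end, had the larger value given above, and Rtl1, named after its values were seen, was at 2.61. The length and GC correction moved Rian to 0.98, just under the 2-fold limit, and the list's median from 2.29 to 1.96.

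Host transcripts of small nucleolar RNAs (snoRNAs), whose introns carry the snoRNAs and whose spliced RNA is short-lived for several of them, lay on both sides. Of 15 tested, 9 were called higher in chromatin and 1 lower, with a median of 1.32, and after scaling to one sum 12 were higher and none lower. Gas5, a host of C/D box snoRNAs, had 291, 261 and 269 FPKM in chromatin and 30.8, 29.5 and 43.8 in nucleoplasm, a log2 difference of 2.98 (SE 0.13, adjusted p = 3.8e-09). Dancr had 49.7, 57.7 and 51.8 FPKM in chromatin and 6.14, 6.13 and 5.16 in nucleoplasm, a log2 difference of 3.09. Snhg5 and Snhg1, named after their values were seen, were at 1.66 and 1.32. The member called lower was Cct6a, at 159, 147 and 140 FPKM in chromatin and 399, 386 and 413 in nucleoplasm (log2 -1.42, not called at -0.62 after that scaling). Cct6a differs from the others in that it codes for a chaperonin subunit. Snhg20 overlapped between the fractions, at 31.1, 39.7 and 48.8 beside 47.6, 59.3 and 34.4 FPKM, and was not called (log2 -0.23, turned to 0.57 by scaling to one sum). Both were named after their values were seen.

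**Figure D2:**
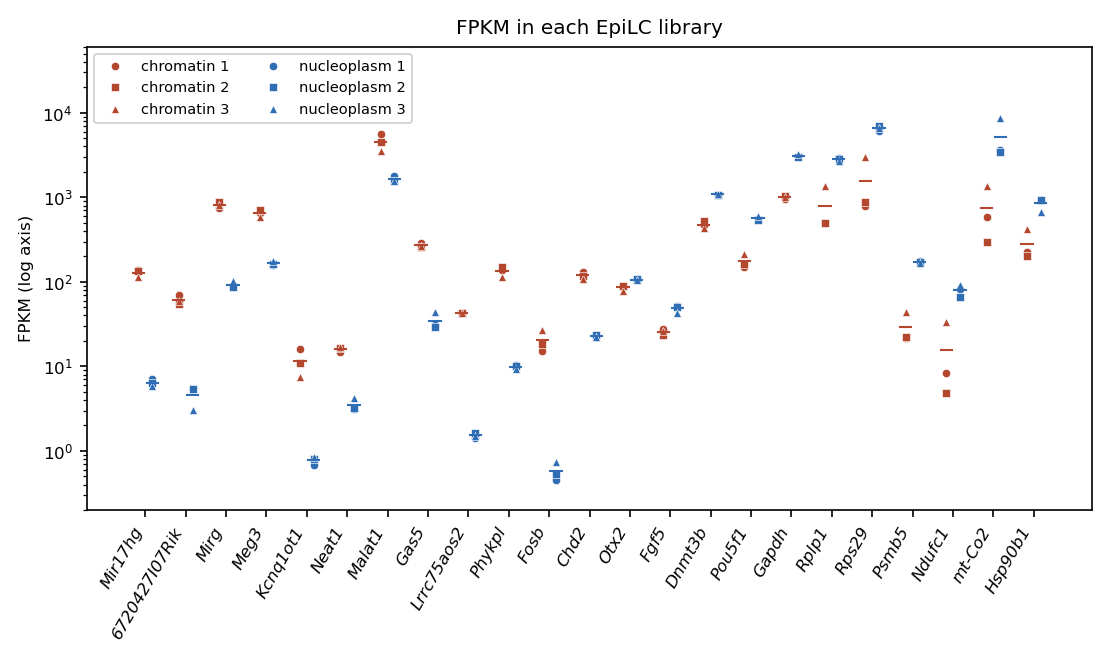
FPKM (log axis) of 23 genes in each of the 3 chromatin (red) and 3 nucleoplasm (blue) EpiLC libraries, with the mean as a bar. Mir17hg at 113 to 137 FPKM in chromatin and 5.82 to 6.99 in nucleoplasm shows the wide separation of host transcripts, and Rps29, Ndufc1 and mt-Co2 show chromatin replicate 3 (triangles) above the other chromatin libraries.

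By annotated type (GENCODE M21, GRCm38), most noncoding genes tested were called higher in chromatin. All 56 sense-intronic genes tested were called higher, as were 263 of 374 antisense genes (70.3%), 212 of 322 lincRNAs (65.8%) and 127 of 181 processed transcripts (70.2%). Between 0 and 3.73% of these types were called lower. Genes that passed the filter on low values through chromatin alone are part of these shares. Sense-intronic genes lie in introns of a gene on their strand, so reads of its unspliced transcript may not be separable from theirs. Genes of all types but coding were divided by neighbours of at least 20 FPKM in total RNA. Of those overlapping one on the same strand, 54 of 60 (90.0%) were called higher. It was 181 of 238 (76.1%) for overlap on the other strand only. With none overlapping, or ending on the same strand within 10000 bp before, it was 409 of 649 (63.0%). Of 11800 protein-coding genes 1360 (11.5%) were called higher and 2094 (17.7%) lower. Of 32 processed pseudogenes 3 were called higher (9.38%) and 15 lower (46.9%), a larger share lower than among coding genes. Their reads may belong to parent genes. Genes with provisional clone names, coding and noncoding, had 725 of 1316 higher and 82 lower, and their median of 1.25 was 0.32 among those with a mean of at least 5 FPKM.

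Protein-coding genes were ordered by length and level. Of those with under 1000 bp of exons, 57.5% were called lower and 10.6% higher. Above 8000 bp, 3.8% were called lower and 17% higher. Genes that span over 300000 bp of the genome were called higher in 29.7% of 232 cases and lower in 2.59%. Coding genes under 1 FPKM in total RNA were called higher in 47.0% of cases, and those of at least 100 FPKM in 0.877%, while 69.8% of the latter were called lower. Total RNA libraries are not part of the contrast, but low genes had to pass the filter through the fraction in which they were high. With length and GC content corrected in every library, 1856 genes were called higher and 1971 lower, and 84.2% of the calls were shared.

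Among coding genes scarce in total RNA, those beside an abundant neighbour were called higher in a larger share of cases. Among those at 1 to 5 FPKM in total RNA, 439 of 2628 (16.7%) with no such neighbour were called higher. The count was 92 of 188 (48.9%) where a gene of at least 20 FPKM in total RNA overlapped on the other strand, and 18 of 39 (46.2%) where one overlapped on the same strand. It was 68 of 225 (30.2%) where the gene started within 10000 bp behind the end of one on the same strand. At 5 to 20 FPKM the shares lay closer together, with 338 of 3607 (9.37%) for no such neighbour, 67 of 283 (23.7%) for overlap on the other strand and 5 of 35 (14.3%) for overlap on the same strand. Behind the end of a neighbour it was 37 of 308 (12.0%), with 38 called lower. Whether reads were assigned by strand is not given in the sources used here, so reads of a gene and of an overlapping neighbour may not be separable.

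**Figure D3:**
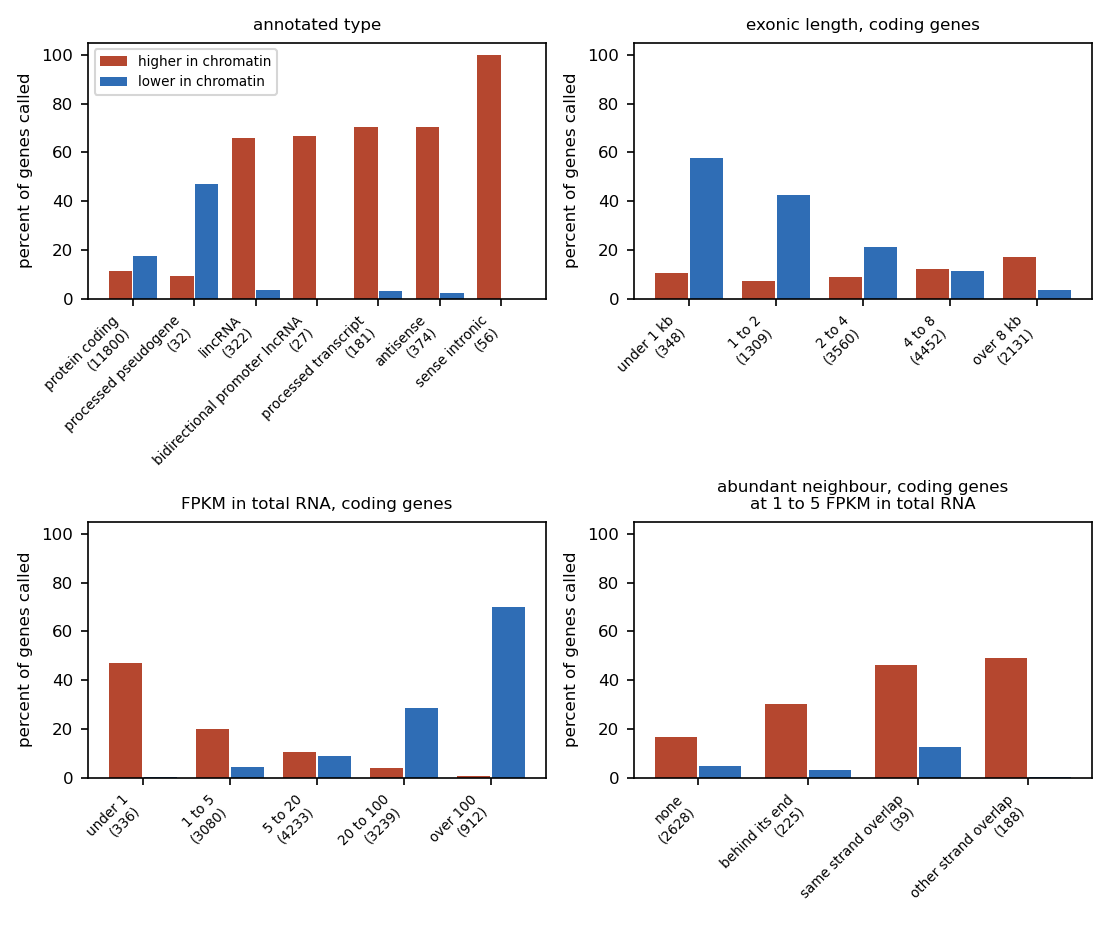
Percent of genes called higher (red) and lower (blue) in chromatin by annotated type, by exonic length, by FPKM in total RNA and by an abundant neighbour, with the number of genes tested in brackets. The share called lower fell from 57.5% under 1 kb of exons to 3.8% over 8 kb and rose to 69.8% at the highest level in total RNA.

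The largest differences toward chromatin, clone names left out, included genes with low levels in nucleoplasm. Lrrc75aos2, an antisense RNA (chr11:62605766-62607748, plus strand), had 42.3, 43.2 and 42.7 FPKM in chromatin and 1.43, 1.63 and 1.51 in nucleoplasm, the largest called fold at 4.42 (SE 0.11, adjusted p = 1.73e-10). Its partner on the other strand, the leucine-rich repeat gene Lrrc75a (chr11:62604884-62648523), had 58.6, 70.2 and 66.4 FPKM in chromatin and 3.67, 4.05 and 4.16 in nucleoplasm, a log2 difference of 3.87. Lrrc75aos2 also starts behind 2410006H16Rik (650 FPKM in total RNA) on its own strand. The pair share the genomic interval, so their reads cannot be told apart without strand. Gpr151, an orphan receptor gene, was at 4.27, Hpgds, the hematopoietic prostaglandin D synthase gene, at 4.18 and Ghrl, the ghrelin gene, at 3.59. Hpgds had 20.2, 15.4 and 9.64 FPKM in chromatin and 0.42, 0.357 and 0.219 in nucleoplasm. At such low nucleoplasm levels the size depends on the pseudocount: with 0.1 in place of 0.5 Gpr151 was at 5.73, Hpgds at 5.10 and Ghrl at 4.38. These are genes of differentiated tissues, and each had under 1 FPKM in cytoplasm.

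Several of the 15 largest lay against an abundant gene. Phykpl, a phospholyase gene (chr11:51584757-51604489, plus strand), overlaps the RNA-binding protein gene Hnrnpab (467 FPKM in total RNA) on the other strand. It had 138, 148 and 115 FPKM in chromatin and 10.3, 10.1 and 9.33 in nucleoplasm, a log2 difference of 3.68 (SE 0.09, adjusted p = 1.73e-10). Tbc1d8, a gene of the TBC domain family (chr1:39371492-39478755, minus strand), overlaps the end of the ribosomal protein gene Rpl31 (1811 FPKM in total RNA) and was at 3.69. Ghrl starts behind Sec13 on its strand and Ccdc17, at 3.87 (4.70 with a pseudocount of 0.1), behind Gpbp1l1. Of the 15, 3 overlapped such a gene on the other strand, 3 started within 10000 bp behind one and 9 had neither.

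Immediate early genes are transcribed within minutes of a growth signal, and their messages decay fast. Of 25 tested, 6 were called higher in chromatin (24%, beside 16% of all genes) and none lower. Their median was 0.32, or 0.12 among those with a mean of at least 5 FPKM and 0.21 to 0.44 with 1 library left out. After scaling to one sum 13 were higher, beside 4786 of all 12834 genes. Fosb, a subunit of the AP-1 transcription factor (chr7:19302696-19310051), had 15.3, 18.5 and 26.9 FPKM in chromatin and 0.45, 0.536 and 0.737 in nucleoplasm. Chromatin was above nucleoplasm in every library, with a log2 difference of 4.24 (SE 0.18, adjusted p = 3.13e-09, or 4.90 with a pseudocount of 0.1). Fos, its close relative, had 23.4, 22.8 and 24.0 FPKM in chromatin and 1.85, 2.39 and 3.84 in nucleoplasm, a log2 difference of 2.95 (SE 0.22). The transcription factor gene Egr1 was at 2.04, and Jun, the AP-1 partner of Fos and named after its values were seen, at 1.38. In total RNA Fos had 36.4 ± 2.7 FPKM and Egr1 11.2 ± 0.929, above every fraction of these cells, while Fosb had 19.5 ± 0.641, about its chromatin level. Cytoplasm held 2.34 ± 0.777, 1.12 ± 0.377 and 0.772 ± 0.127 FPKM of Fos, Egr1 and Fosb.

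Genes with detained introns, whose transcripts are held in the nucleus until an intron is removed, were called higher about as often as all genes. A smaller share was called lower. Of 47 tested, 8 were called higher (17%, beside 16% of all genes) and 2 lower (4.26%, beside 16.7%). The median was 0.28 beside -0.07 for all genes, or 0.04 after the length and GC correction. With scaling to one sum, 24 were higher and 1 lower, beside 4786 and 496 of all 12834 genes. Those higher included Ccnl1, a cyclin of the splicing machinery, at 171, 133 and 126 FPKM in chromatin and 39.2, 37.2 and 33.3 in nucleoplasm (log2 1.95, SE 0.18, adjusted p = 8.96e-07). The splicing kinase gene Clk1, named after its values were seen, was at 1.22 (0.97 after that correction). The pair called lower were U2af1 and U2af2, the subunits of the factor that recognises the 3′ splice site. U2af1 had 47.4, 46.9 and 52.9 FPKM in chromatin and 195, 201 and 202 in nucleoplasm (log2 -2.01), and U2af2 was at -1.45 (-0.65 and not called after scaling to one sum).

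Long genes and zinc finger genes had more members called higher in chromatin than lower. Of 31 long genes 7 were called higher (22.6%) and none lower, with a median of 0.60 (0.04 after the length and GC correction). The count was 4 without chromatin replicate 1 and also 4 without nucleoplasm replicate 1. Zbtb20, a zinc finger repressor gene that spans chr16:42875881-43642602, had 18.6, 13.8 and 15.5 FPKM in chromatin and 1.42, 1.38 and 1.78 in nucleoplasm (log2 3.02, SE 0.16, adjusted p = 1.37e-08, or 2.20 after that correction), and the scaffold gene Magi2 was at 1.99. Of 342 Zfp-named genes 54 were called higher (15.8%) and 5 lower, with a median of 0.34, so the share called higher was near that of all genes and the share called lower was smaller. Zfp202 (2.87) and Zfp672 (2.45) were the largest. Scaling to one sum gave 18 long genes and 191 Zfp-named genes higher and none lower.

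Chromatin modifiers and remodellers divided by member, with 12 of 61 higher (19.7%) and 8 lower (13.1%), near the shares of all genes, and a median of 0.07. The counts were 9 and 9 without chromatin replicate 1 (median -0.04), 11 and 10 without chromatin replicate 2, and 28 and 2 after scaling to one sum, and the median was -0.20 after the length and GC correction. The remodeller gene Chd2 had 130, 117 and 109 FPKM in chromatin and 22.4, 23.4 and 22.4 in nucleoplasm, a log2 difference of 2.36 (SE 0.09, adjusted p = 2.73e-09). The histone methyltransferase gene Ash1l was at 1.77 and the remodeller gene Chd6, named after its values were seen, at 1.64. Toward nucleoplasm were the de novo DNA methylation genes Dnmt3l (-2.01), Dnmt3a (-1.42) and Dnmt3b (-1.19), of which Dnmt3a (-0.62) and Dnmt3b (-0.38) lost their calls with scaling to one sum. Smarcb1, a core subunit of the BAF remodelling complex, had 24.4, 25.4 and 23.4 FPKM in chromatin and 90.3, 86.3 and 91.6 in nucleoplasm (log2 -1.85, SE 0.07).

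**Figure D4:**
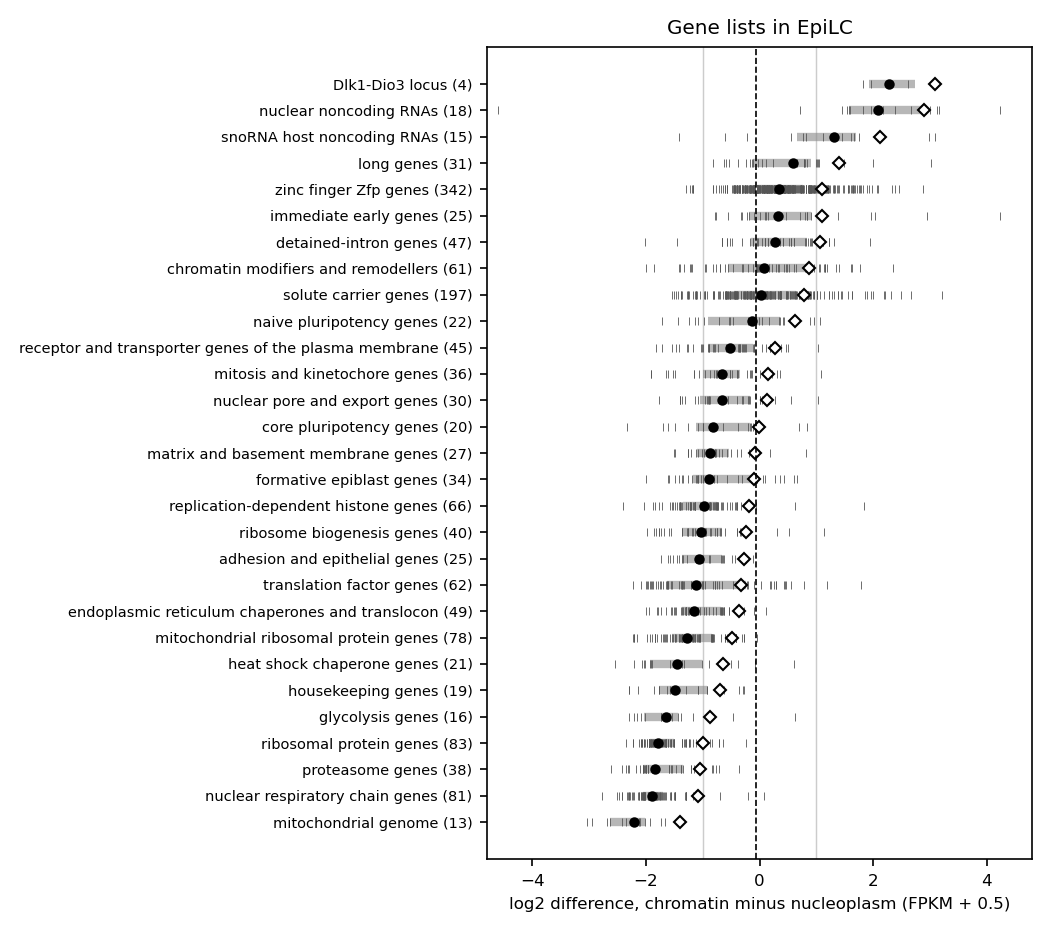
Log2 difference, chromatin minus nucleoplasm, of each tested member of 29 gene lists (ticks), with the quartiles as a bar, the median as a filled point and the median after scaling to one sum as a diamond. The number tested is in brackets, the dashed line is the median of all genes (-0.07), and Gm26917 is drawn at the left edge. Medians run from -2.21 for the mitochondrial genome to 2.29 for the Dlk1-Dio3 locus.

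Messages of the translation machinery were mostly lower in chromatin. Of 83 ribosomal protein genes 76 were called lower and none higher, with a median of -1.79 (-0.99 and 40 lower after scaling to one sum). Rplp1, of the ribosomal stalk (chr9:61913284-61914542), had 494, 495 and 1348 FPKM in chromatin and 2881, 2815 and 2725 in nucleoplasm, a log2 difference of -2.02 (SE 0.30, adjusted p = 6.13e-05). Rps29 had 786, 882 and 2979 in chromatin and 6134, 6989 and 6517 in nucleoplasm, at -2.36, or -2.97 without chromatin replicate 3. Both genes were highest in that library and below nucleoplasm in all 3. Rpl12, named after its values were seen, was not called, at 594, 673 and 797 beside 839, 793 and 786 FPKM (log2 -0.24, turned to 0.57 by scaling to one sum). Mitochondrial ribosomal protein genes had 55 of 78 lower (median -1.27) and ribosome biogenesis genes 20 of 40 lower and 1 higher (-1.03). After scaling to one sum 12 of the former were lower (-0.49), and 3 of the latter were lower and 3 higher (-0.24).

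Translation factors, taken by Eif and Eef names, had 34 of 62 lower and 2 higher, with a median of -1.12. After scaling to one sum 10 were lower and 10 higher. Eif5a, an elongation factor that carries hypusine, had 123, 134 and 171 FPKM in chromatin and 663, 669 and 664 in nucleoplasm (log2 -2.23, SE 0.12, adjusted p = 1.02e-08). The pair called higher were Eif4a2 and Eif4g2, named after their values were seen. Eif4a2, an RNA helicase of initiation and a snoRNA host, had 1938, 1658 and 1584 FPKM in chromatin and 522, 462 and 503 in nucleoplasm, a log2 difference of 1.80 (SE 0.10). Eif4g2, a scaffold of cap-independent initiation, was at 1.18 (0.96 after the length and GC correction).

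Genes of energy metabolism and protein turnover were mostly lower in chromatin. Of 81 nuclear respiratory chain genes 78 were called lower (median -1.89), and of 38 proteasome genes 33 (-1.85). After scaling to one sum 53 and 21 were lower. Ndufc1, a complex I subunit, had 8.39, 4.84 and 33.3 FPKM in chromatin and 81.8, 66.8 and 91.7 in nucleoplasm, a log2 difference of -2.77 (SE 0.48, adjusted p = 0.000215), or -3.54 without chromatin replicate 3. Psmb5, a catalytic subunit of the proteasome, had 21.8, 22.1 and 43.6 in chromatin and 174, 173 and 168 in nucleoplasm (log2 -2.61, SE 0.20), and Psma6 was at -2.42. Of 16 glycolysis genes 14 were lower (median -1.65), of 21 heat shock chaperones 16 (-1.45) and of 19 housekeeping genes 13 (-1.49). After scaling to one sum 5, 8 and 4 were lower, and 1 glycolysis and 1 heat shock gene were higher. Pgk1 had 206, 200 and 215 FPKM in chromatin and 1035, 980 and 1030 in nucleoplasm (log2 -2.29, SE 0.08). Hsp90aa1, a cytosolic chaperone, was at -2.55 with 416 ± 225 FPKM in cytoplasm, under its 4218 ± 90.5 in nucleoplasm. Gapdh was at -1.64 (-0.83 and not called after that scaling) and Actb at -2.13.

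The mitochondrial genome codes for subunits of the respiratory chain and is transcribed inside mitochondria, outside the nucleus. All 13 messages were called lower in chromatin, with a median of -2.21 (-2.83 without chromatin replicate 3), and 11 after scaling to one sum. For mt-Co2, a subunit of complex IV, chromatin had 586, 294 and 1350 FPKM and nucleoplasm 3582, 3450 and 8586, a log2 difference of -2.94 (SE 0.47, adjusted p = 0.000121). Cytoplasm held 901 ± 232 FPKM of mt-Co2 and total RNA 1856 ± 239, both under the nucleoplasm mean of 5206 ± 2928. The 13 messages made up 5.44% to 10.5% of the FPKM sum in nucleoplasm libraries, 1.19% to 5.41% in chromatin, 0.505% to 0.661% in cytoplasm and 2.53% to 3.01% in total RNA. The nucleoplasm libraries were above every library of the other kinds, but the lowest of them (5.44%) only just exceeded chromatin replicate 3 (5.41%). For mt-Co1 the difference was -2.36, or -3.04 without chromatin replicate 3.

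Most messages of the endoplasmic reticulum and of adhesion were called lower in chromatin, while most of those for receptors and solute carriers were not called. Endoplasmic reticulum chaperones and translocon genes had 30 of 49 lower and none higher (median -1.16), with 3 lower after scaling to one sum. Hsp90b1, the chaperone GRP94, had 227, 200 and 418 FPKM in chromatin and 932, 933 and 679 in nucleoplasm, a log2 difference of -1.65 (SE 0.32, adjusted p = 0.000555). Its cytoplasm level was 52.7 ± 28.0 FPKM, under both nuclear fractions. Sec61b, of the translocon, was at -1.99, while Sec61a1, named after its values were seen, overlapped between fractions (70.9, 90.2 and 96.9 beside 98.9, 98.9 and 76.4 FPKM) and turned from -0.09 to 0.71 with scaling to one sum and to 0.04 without chromatin replicate 1. Adhesion genes had 14 of 25 lower (median -1.07), with E-cadherin, Cdh1, named after its values were seen, at 126, 149 and 285 beside 514, 517 and 387 FPKM (log2 -1.42). Matrix genes had 9 of 27 lower, or 16 without chromatin replicate 3. No adhesion gene was called after scaling to one sum (median -0.27), and 1 matrix gene was higher and none lower. Receptor genes of the plasma membrane had 10 of 45 lower (22.2%) and 1 higher, and their median of -0.51 turned to 0.27 with scaling to one sum. Solute carriers had 26 of 197 higher and 18 lower (median 0.03), or 78 and none after scaling to one sum. The levels of these lists moved with chromatin replicate 3, which held more of them, and with nucleoplasm replicate 3, which held less. Without nucleoplasm replicate 3, 33 endoplasmic reticulum and 12 matrix genes were called lower. The calls on Hsp90b1, Sec61b and Cdh1 held without chromatin replicate 3. Scaling to one sum ended those on Hsp90b1 (-0.85) and Cdh1 (-0.61).

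Replication histones, whose messages end in a stem-loop with no poly(A) tail, had 32 of 66 lower and 1 higher, with a median of -0.98. After scaling to one sum 4 were lower and 2 higher. Hist1h4b had 114, 149 and 231 FPKM in chromatin and 857, 763 and 882 in nucleoplasm, a log2 difference of -2.40 (SE 0.20, adjusted p = 3.91e-07). Near-identical copies make the assignment of its reads uncertain. The member called higher, Hist2h2be, had 1.59, 2.38 and 2.92 beside 0.198, 0.361 and 0.237 FPKM (log2 1.85, or 2.70 with a pseudocount of 0.1) and starts behind Hist2h2ab on its strand. Nuclear pore genes had 8 of 30 lower and 1 higher (median -0.67) and mitosis genes 9 of 36 lower and 1 higher (-0.66), and both medians turned to 0.13 and 0.15 with scaling to one sum. Cdk1, the mitotic kinase, had 47.9, 47.2 and 49.9 FPKM in chromatin and 193, 189 and 170 in nucleoplasm (log2 -1.91).

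Genes of the formative state, the transition of epiblast cells after implantation that EpiLC model, ranged in log2 difference from -2.01 to 0.67. Of 34 tested, 14 were called lower and none higher (median -0.89). Scaling to one sum gave 1 lower and 5 higher (median -0.10). Otx2, a transcription factor of this transition (chr14:48657677-48673819), had 90.1, 90.0 and 78.5 FPKM in chromatin and 108, 107 and 104 in nucleoplasm, and Pou3f1 23.0, 27.9 and 25.5 beside 26.9, 26.3 and 29.0. Their log2 differences of -0.30 and -0.11 were not called and turned to 0.50 and 0.69 with scaling to one sum. The secreted factor gene Fgf5 (chr5:98254184-98277030) had 27.5, 23.5 and 26.1 FPKM in chromatin and 51.9, 50.7 and 42.9 in nucleoplasm, which did not overlap and stayed under 2-fold (log2 -0.90, SE 0.10, adjusted p = 3.37e-06). Dnmt3b, a de novo DNA methyltransferase (chr2:153649450-153687730), had 472, 525 and 430 in chromatin and 1073, 1063 and 1103 in nucleoplasm (log2 -1.19, SE 0.09, adjusted p = 2.38e-07), a call that this scaling ended (-0.38). Lin28b, which blocks let-7 processing, overlapped at 37.4, 28.8 and 26.7 beside 22.4, 22.4 and 32.2 FPKM (log2 0.27, called at 1.07 after scaling to one sum). It had 2.19 ± 1.01 FPKM in cytoplasm.

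Core pluripotency genes had 6 of 20 lower and none higher (median -0.81), and after scaling to one sum 1 was lower and 2 higher (-0.01). Pou5f1, the gene of OCT4 (chr17:35506018-35510772), had 149, 162 and 213 FPKM in chromatin and 551, 539 and 598 in nucleoplasm, a log2 difference of -1.70 (SE 0.12, adjusted p = 1.41e-07). Sox2, its partner factor, had 36.3, 39.4 and 31.5 beside 79.1, 75.3 and 61.3 (log2 -0.99). It fell just short of the 2-fold limit and passed it without either chromatin replicate 1 (-1.01) or 2 (-1.07), without nucleoplasm replicate 3 (-1.10), with a pseudocount of 0.1, and with every library centred on its median (-1.01). Dppa5a was at -2.34. Naive pluripotency genes, low in these cells, had 5 of 22 lower and 1 higher (median -0.13, turned to 0.62 by scaling to one sum), or 3 lower without nucleoplasm replicate 1. Nanog, a factor of naive cells, had 7.95, 6.55 and 6.49 FPKM in chromatin and 19.5, 18.4 and 21.2 in nucleoplasm (log2 -1.43, SE 0.10). With scaling to one sum Pou5f1 (-0.90) and Nanog (-0.67) lost their calls.

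The difference between fractions was then compared between EpiLC and nESC, whose libraries are separate. Each of the 12 libraries was centred on its median. Across 11704 genes the differences of the states had a Pearson's r of 0.857, where genes are not independent replicates. Of these genes 909 (7.77%) were called for an interaction, 464 (3.96%) more toward chromatin in EpiLC and 445 (3.8%) less. Nuclear noncoding RNAs were close in both states, with centred medians of 2.19 in EpiLC and 2.18 in nESC and 1 of 16 called. Ribosomal protein genes had medians of -1.76 and -2.10, with 6 of 83 called higher in EpiLC. EpiLC chromatin replicate 3 held more of these messages, and without it their EpiLC median before centring moved from -1.79 to -2.04. Interactions of lists were not fitted again without that library, so its part in this difference was not tested. Replication histones had -0.96 and -0.94 with none of 65 called. Mitosis genes had -0.62 in EpiLC and 0.24 in nESC, with 12 of 36 called lower in EpiLC and none higher beside 3.8% of all genes. Nuclear pore genes had -0.64 and 0.10 with 5 of 30 called lower, and heat shock chaperones -1.42 and -0.62 with 4 of 20. Other lists shifted the same way. Median interactions were -0.70 for glycolysis genes (3 of 16 lower), -0.64 for chromatin modifiers (7 of 59) and -0.62 for ribosome biogenesis genes (6 of 40). Solute carriers had 16 of 178 called higher and 4 lower. For Malat1, 1 nESC nucleoplasm library is listed at 0, and its interaction was not called.

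**Figure D5:**
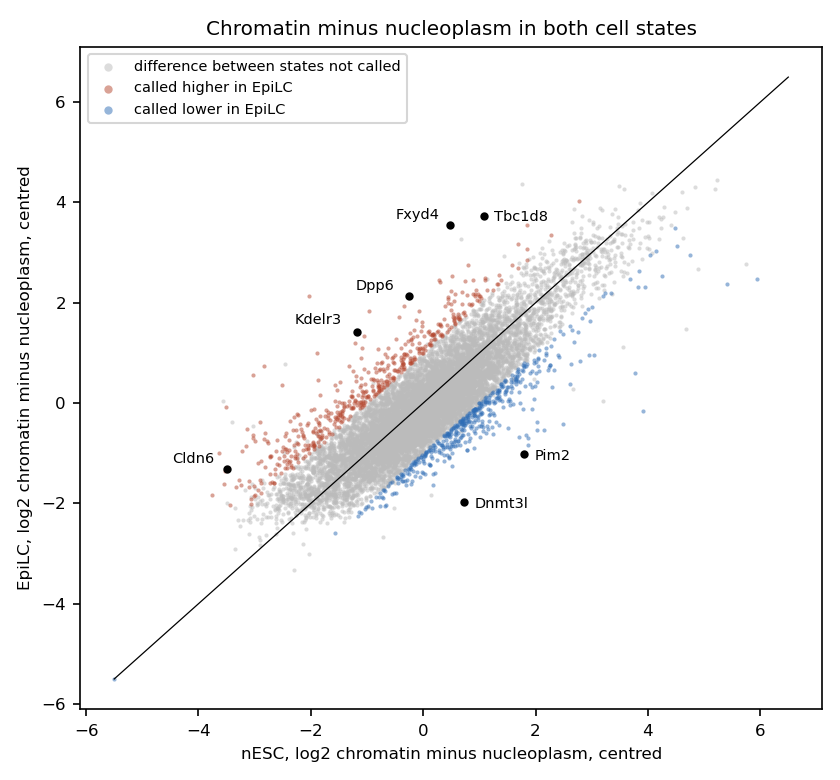
Log2 difference, chromatin minus nucleoplasm, of 11704 genes in EpiLC (vertical) and nESC (horizontal), each library centred on its median, with equality as a line. The 464 genes called higher in EpiLC (red) lie above the line and the 445 called lower (blue) below it. Gm26917 is drawn at the lower left limit of the axes.

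Among the 214 genes called both for the interaction and within EpiLC, with a mean of at least 5 FPKM in either fraction and clone names left out, the largest interactions went both ways. Dnmt3l, the catalytically inactive partner of the de novo methyltransferases (chr10:78041947-78063622), had 39.0, 43.5 and 30.6 FPKM in EpiLC chromatin and 165, 171 and 124 in nucleoplasm. In nESC it had 11.1 ± 3.24 in chromatin and 6.36 ± 0.322 in nucleoplasm (SD, n = 3), the opposite order. The interaction, EpiLC minus nESC, was -2.71 (SE 0.27, adjusted p = 0.000121). Pim2, a survival kinase gene, had 33.4, 33.0 and 25.8 FPKM in EpiLC chromatin and 67.8, 67.5 and 55.2 in nucleoplasm, beside 9.56 ± 0.528 and 2.42 ± 0.174 in nESC, an interaction of -2.79 (SE 0.17). Its EpiLC difference of -1.04 stood at the 2-fold limit and lost its call without chromatin replicate 3 (-0.92), nucleoplasm replicate 1 (-0.99) or nucleoplasm replicate 2 (-0.99), with the length and GC correction (-0.88) and with scaling to one sum (-0.24). In the other direction Dpp6, a potassium channel accessory gene, had 17.1, 11.9 and 9.19 FPKM in EpiLC chromatin and 2.54, 2.33 and 2.60 in nucleoplasm, beside 6.34 ± 0.782 and 7.59 ± 0.303 in nESC, an interaction of 2.38 (SE 0.24).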

How the data were processed

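RNA-seq of EpiLC chromatin, nucleoplasm, cytoplasm and total RNA (3 libraries each) was used, with nESC chromatin and nucleoplasm for the interaction. RNA was extracted with TRIzol, depleted with Ribo-zero gold and prepared with the TruSeq Stranded Total RNA kit, per the labels' protocols. Each gene has a deposited FPKM value per library. The submitters' processing notes name TopHat2, Cuffnorm and the build mm10 (GRCm38). Not given in the sources used here are tool versions, annotation, library scaling and strand use.

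Libraries were grouped by their labels. Log2(FPKM + 0.5) of the 12 EpiLC libraries was fitted with limma 3.58.1 in R 4.3.3 (two-sided, eBayes with an intensity trend) for genes averaging at least 1 FPKM, so that differences of low genes are understated. A call is a Benjamini-Hochberg adjusted p under 0.05 with at least a 2-fold difference. The interaction used 12 centred libraries of both states and genes of at least 1 FPKM in each. The fit was tested on simulated data. Steps between low values, 77.2% to 86.2% of which lay within 0.1 steps of a whole multiple, gave the fragments behind 1 FPKM. Both state tables were normalized separately. Counts are not in these tables. Named genes were the 15 largest differences per direction (no overlap, higher mean at least 5 FPKM, no clone or small RNA names), up to 4 members of each list, a fixed set and the 8 largest interactions. The rule gave 167 genes, and the text prints some of them. Of the 8 interactions 1 is not reported here. Members, lists and rule were chosen with earlier results of these data known. Gene types, lengths and neighbours came from GENCODE M21.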

Additional observations from a re-analysis of the deposited data

Results flagged for a closer look

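Of the 8 genes with the largest called difference of chromatin minus nucleoplasm between the states, among those also called within EpiLC, 7 are given as log2 interactions, EpiLC minus nESC, from the limma test of the difference itself. Fxyd4, a regulator of the sodium pump, was at 3.07, Tbc1d8 at 2.64, Kdelr3, a receptor for retrieval to the endoplasmic reticulum, at 2.59, Dpp6 at 2.38 and the tight junction gene Cldn6 at 2.19. Pim2 was at -2.79 and Dnmt3l at -2.71. With each of the 12 libraries left out in turn, these 7 genes kept their direction and their call. Fxyd4 had 11.5, 11.5 and 4.35 FPKM in EpiLC chromatin and 0.56, 0.174 and 0.163 in nucleoplasm, with an EpiLC log2 difference of 3.51 (4.54 with a pseudocount of 0.1), beside 3.45 ± 1.26 and 2.3 ± 0.568 in nESC (SD, n = 3). Cldn6 had 53.6, 60.6 and 154 FPKM in EpiLC chromatin, highest in replicate 3, and 210, 214 and 184 in nucleoplasm, beside 1.47 ± 0.185 and 21.8 ± 1.59 in nESC. Its EpiLC call ended with scaling to one sum (-0.54). The part of overlapping or preceding neighbours, which Tbc1d8, Kdelr3 and Pim2 have, was not tested.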

How the results depend on the processing

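The number of genes called higher in chromatin was 3251 with no filter on low values, 832 with a mean of at least 5 FPKM and 4786 with every library scaled to one sum, where 496 were called lower. Leaving out 1 library gave 4054 to 4554 calls, 1980 to 2211 higher and 2067 to 2343 lower. The interaction had 1743 calls with no filter, 1219 of them lower in EpiLC, and 486 with a mean of at least 5 FPKM, 151 of them lower. Leaving out 1 library gave 804 to 1180 interaction calls, 399 to 570 higher and 394 to 610 lower. Without nESC nucleoplasm replicate 3, listed at 0, the interaction of Malat1 was 1.09, within a range of -5.36 to 1.09 over the libraries left out. With the replicate number as a block 4200 genes were called, 2059 higher and 2141 lower. Same-numbered chromatin and nucleoplasm libraries had correlations of deviations of -0.13, -0.17 and -0.20, and differently numbered ones of -0.06 to 0.16. Whether same-numbered libraries share a culture was not tested.

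Scaling to one sum turned Snhg20 (0.57), Rpl12 (0.57), Sec61a1 (0.71), Otx2 (0.50) and Pou3f1 (0.69), and the medians of receptor genes (0.27), naive genes (0.62), nuclear pore genes (0.13), mitosis genes (0.15) and trophectoderm markers (0.22). Sec61a1 ranged from -0.21 to 0.042 with 1 library left out. Medians of primitive endoderm (0.014) and mesoderm and neural markers (0.20) turned with no filter, and that of solute carriers (-0.14) at 5 FPKM. Of 87 named genes, 14 lost and 2 gained their call with scaling to one sum and 4 lost it with the length and GC correction, while pseudocounts of 0.1 and 1 and the filter at no minimum ended none. The 1 member called higher was not called without chromatin replicate 1 among receptor, nuclear pore and mitosis genes, without chromatin replicate 2 among nuclear pore genes and without nucleoplasm replicate 1 among receptor genes. Of the fibroblast and feeder markers 1 in place of 2 was lower without chromatin replicate 1 or 2 or nucleoplasm replicate 3. The cause was not tested. Depth limits low genes most: 1 FPKM at 2 kb rests on 31.4 to 76.7 fragments.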
